A study of Mus musculus with 16 samples.

Results

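The Sfmbt2 microRNAs were taken as the 164 rows, of 2386 in the small RNA table, named miR-297, miR-466, miR-467 or miR-669 with any letter, locus and arm. The rule reads names and no measured value. By the annotation they come from 82 hairpins, of which 72 (144 rows) lie within the gene Sfmbt2 and 10 (20 rows) lie at other loci. The name miR-297 covered 12 rows, miR-466 covered 58, miR-467 covered 34 and miR-669 covered 60.

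Small RNA came from 2 mouse stromal cell lines, AFT024 and BFC012, and from the exosomes (small secreted membrane vesicles) of each. Both lines were derived from C57BL/6 fetal liver at 14.5 dpc (days post coitum) and no genetic change or treatment is labelled. AFT024 is labelled supportive and BFC012 non-supportive of HSPC, the hematopoietic stem and progenitor cells, and since each kind is 1 line, line and support cannot be told apart. Each of the 4 small RNA groups has 2 labelled samples, but the tables hold 1 merged value per group, and for exosomes the 2 samples are technical, split from pooled extractions. No difference below therefore has a replicate check, no p-value was computed, and every interval is an exact Clopper-Pearson interval at 95% that covers counting error only, since reads amplified by PCR are not independent molecules.

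A microRNA is cut from a hairpin in a longer transcript, and the arm at the 5′ side (5p) or the 3′ side (3p) of the hairpin is loaded into an Argonaute protein, where bases 2 to 8, the seed, pair with target messages. Sfmbt2 encodes a Polycomb-related chromatin protein and is an imprinted gene in mouse, expressed from the paternal copy in the placenta. One of its introns carries one of the largest microRNA clusters of the mouse genome, made of many near-identical hairpins that came about by local duplication, and the cluster is best known for its high expression in trophoblast and embryonic cells.

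Of the 164 members, 8 matched a mature sequence in RefSeq (GRCm38.p6), all 8 from hairpins outside Sfmbt2. The 5 shown are those with reads in exosomes, and their reads are set against those of cells below. They are written 5′ to 3′ with the seed in capitals.
miR-466k-5p: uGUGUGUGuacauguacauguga
miR-466j-3p: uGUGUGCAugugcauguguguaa
miR-466i-3p: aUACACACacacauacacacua
miR-467f-3p: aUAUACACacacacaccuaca
miR-467h-3p: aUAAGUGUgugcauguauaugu
Their loci are chr3:85467396-85467418 (plus strand), chr10:60960802-60960824 (plus), chr13:17747552-17747573 (plus), chr11:69635419-69635439 (minus) and chr9:115381898-115381919 (plus), in that order. The members matched had a median of 20 bases in their longest run of alternating purine and pyrimidine (the lowest had 8), against a median of 4 over the 1674 distinct mature sequences of the table, of which 3.41% reached 8. No seed was shared among the 8, and that of miR-467h-3p was shared with 1 other microRNA, miR-668-5p, which had 0 reads in every group. Seeds of the other members, including all rows within Sfmbt2, could not be compared because no sequence was matched.

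The 72 hairpins within Sfmbt2 spanned 51.6 kb (chr2:10466663-10518279) on the plus strand, which is the strand of Sfmbt2 (chr2:10370510-10595253). All 72 lay in intron 10 of the first annotated transcript (chr2:10461473-10523944), and 0 overlapped an exon. Of the 10 other hairpins, that of miR-466q lay on chromosome 3 within Tnik on the same strand. The hairpins of miR-467f, miR-466i, miR-466k, miR-669n and miR-467g lay within Fxr2, Cdk13, Gm37240, Slc30a7 and Grk4, each on the opposite strand. The hairpins of miR-466j, miR-466f-4, miR-297a-1 and miR-467h lay in no annotated gene. Near-identical hairpins make single rows uncertain: 92 of the 164 rows bear a locus number, and the sources used here do not say how reads that fit several loci were divided.

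The small RNA libraries held 1120450 reads for exosomes and 17293776 for cells of AFT024, and 1247068 for exosomes and 17547485 for cells of BFC012. In the deposited normalized scale 1 read was worth 2.67 and 2.66 in the exosomes of AFT024 and BFC012 and 0.356 and 0.353 in their cells. The floor used for a count of 0 is 3 reads (a 1-sided bound, below the upper limit of the 2-sided intervals), which correspond to 8.02, 7.98, 1.07 and 1.06. The labelled cell type was checked in the polyA RNA of the same lines: 7 of 8 stromal marker genes reached 1 FPKM (fragments scaled to transcript length and library size) in at least 1 group, Thy1 being the exception. In BFC012 cells Col1a2 was also below that, at 0.0716 FPKM against 6.91 in AFT024. Of 6 blood cell markers 2 reached 1 FPKM, Cd34 and Itgam, and Ptprc had at most 2 reads. Cd34 was at 39.7 FPKM in AFT024 cells and 43.2 FPKM in BFC012 cells, with 4323 and 4336 reads. For Itgam FPKM and reads disagree, at 10.6 and 8.5 FPKM in these cells but at most 5 reads in any group. A list of other microRNAs, 98 rows numbered as in the imprinted Dlk1-Dio3 cluster, took 0.00303% of BFC012 cell reads but 0.844% of BFC012 exosome reads. In AFT024 these shares were 0.23% and 1.21%. The part of this contrast in the exosome results below was not tested.

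The 4 numbers were a minor share of the small RNA in every group, and BFC012 cells held the most. They took 0.0122% of the reads of AFT024 cells (interval 0.0117 to 0.0127%), 0.0517% of BFC012 cells (0.0506 to 0.0528%), 0.0198% of AFT024 exosomes (0.0173 to 0.0226%) and 0.0315% of BFC012 exosomes (0.0285 to 0.0348%). In whole reads these were 2105, 9072, 222 and 393. Reads were found in 133 of the 164 rows in AFT024 cells, 147 in BFC012 cells, 76 in AFT024 exosomes and 99 in BFC012 exosomes, and 12 rows had none in any group. Rows with 10 or more reads numbered 57, 100, 3 and 7, so the exosome values rest on few reads.

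**Figure D1:**
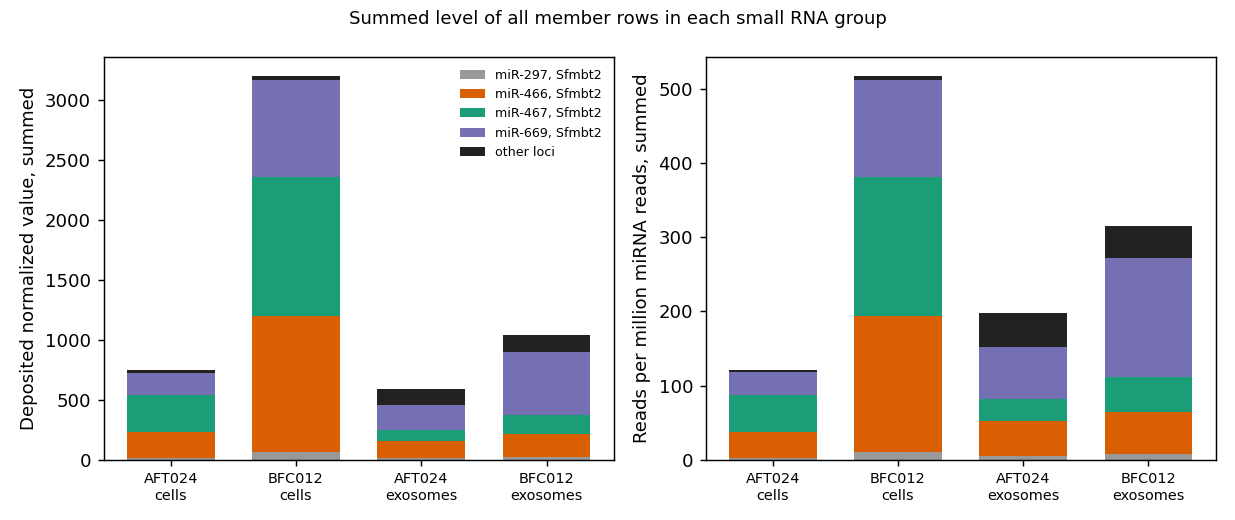
Summed level of the 164 rows in each group, on the left as the deposited normalized value and on the right as RPM (reads scaled to the library's total), stacked by number for hairpins within Sfmbt2 with the rows at other loci in black. BFC012 cells are highest on both scales, and exosomes of AFT024 lie below their cells on the left and above them on the right.

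In cells, miR-467 and miR-466 rows led. Of the reads, miR-467 took 875 in AFT024 and 3308 in BFC012, miR-466 took 628 and 3254, miR-669 took 528 and 2295, and miR-297 took 74 and 215. The highest row was miR-467d-5p (chr2:10507630-10507714, the hairpin), with 288 reads in cells of AFT024, 1057 in cells of BFC012, 4 in AFT024 exosomes and 12 in BFC012 exosomes. Among all microRNA rows it ranked 318 of the 1389 rows with reads in AFT024 cells and 208 of 1276 in BFC012 cells. Next came miR-467c-5p, with 179, 676, 4 and 9 reads in the same order.

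Among miR-466 rows the highest in cells was miR-466g-3p (hairpin chr2:10514595-10514674), with 102 reads in AFT024 cells, 588 in BFC012 cells, 24 in AFT024 exosomes and 23 in BFC012 exosomes. It therefore stood apart from miR-467d-5p in exosomes, where it had more reads than that row in both lines. The miR-669 row with the most reads in cells was miR-669l-5p, with 36, 219, 1 and 3 reads. The highest miR-297 row was miR-297b-5p, with 18, 71, 2 and 0 reads.

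In 3 large sets, rows that share a name but differ in locus number had similar reads in cells. The 8 loci of miR-466b-3p held 14 to 26 reads each in cells of AFT024 and 100 to 145 in cells of BFC012. The 10 loci of miR-467a-5p held 24 to 30 and 82 to 121 reads, and the 12 loci of miR-669a-5p held 17 to 28 and 68 to 113. The variance over the mean among the loci of these sets was between 0.167 and 2.42 in these cells, where counting alone gives about 1, and over all members it was 64.6 and 238. Other sets were less even: the 12 loci of miR-669a-3p held 0 to 9 reads in AFT024 and 1 to 31 in BFC012, and the loci of miR-466f-3p numbered from 1 to 4, a set chosen after its values were seen, held 3, 147, 33 and 0 reads in BFC012 cells. Rows of one name are not independent measurements, and rows without a locus number are given separately under the alternatives.

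The arm that held the reads depended on the number. In AFT024 and BFC012 cells the 5p arm took 95.9% and 96.7% of miR-467 reads, 88.3% and 88.8% of miR-669 reads and 90.5% and 90.2% of miR-297 reads. For miR-466 the 3p arm led, with the 5p arm at 25.6% (22.3 to 29.2%) in AFT024 cells and 15.7% in BFC012 cells. In exosomes AFT024 had a miR-466 5p share of 48.0% (38.0 to 58.2%) and BFC012 one of 49.6% (40.1 to 59.0%), above that of the cells in both lines. The share differed by locus: rows within Sfmbt2 had a 5p share of 21.2% and 29.2% in exosomes, and those at other loci had 76.0% and 83.7%. In cells these shares were 24.5% and 15.3% within Sfmbt2 and 54.2% and 48.7% at other loci. Within Sfmbt2 the exosome share was thus above that of the cells in BFC012 only. At other loci miR-466q-5p held 28 of 38 and 21 of 36 of the 5p exosome reads.

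The first comparison asked how the lines differ in their cells. Rows within Sfmbt2 were higher in BFC012 cells almost throughout, from 2046 reads in the AFT024 library to 8994 in the BFC012 library, a ratio of 4.36 (4.15 to 4.57) on the deposited scale and 4.33 per total reads. The rows at other loci held 59 and 78 reads, a ratio of 1.31 with an interval from 0.922 to 1.87 that holds 1. The intervals of the 2 sets of rows lie apart. In bulk libraries, fewer cells holding an RNA and less of it per cell cannot be told apart. By number, the ratio within Sfmbt2 was 3.68 (2.67 to 5.15) for miR-297, 5.27 (4.83 to 5.76) for miR-466, 3.78 (3.51 to 4.08) for miR-467 and 4.31 (3.92 to 4.74) for miR-669. The interval for miR-466 lay above those of miR-467 and miR-669. Within miR-466 the 3p arm had a ratio of 5.92 (5.36 to 6.55) and the 5p arm 3.29 (2.74 to 3.99), so the 2 arms of the same hairpins did not differ by the same factor between the lines.

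The difference was seen at hairpins along the whole cluster. Of the 72 hairpins within Sfmbt2, 71 had reads in cells, and 71 of those 71 had more in BFC012 cells. These hairpins, and the rows counted next, are not independent, as many are near-identical. How reads that fit several loci were divided is not known, and reads shared out among loci would repeat 1 difference at each. Among the 65 rows within Sfmbt2 with 30 or more reads in the cells of both lines together, the ratio ranged from 2.93 to 12.9 with a median of 4.46, and all 65 intervals lay above 1. The single row elsewhere with that many reads was miR-297a-1-5p (hairpin on chromosome 7), with 25 reads in cells of AFT024, 33 in those of BFC012 and 0 in both exosome groups. A row can pass this minimum through BFC012 cells alone, as miR-669f-5p did with 5 and 65 reads, so the count of 65 was partly set by it. Neither the count of hairpins nor that of rows has a share over all rows beside it.

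**Figure D2:**
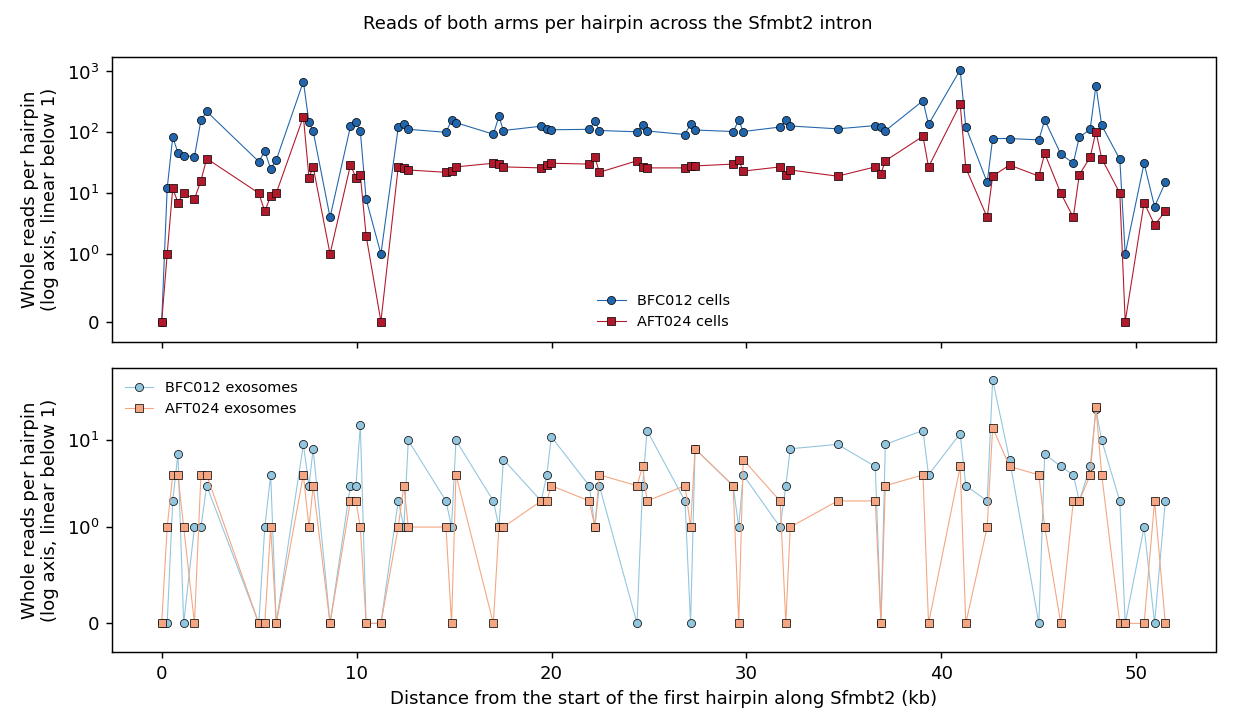
Whole reads of both arms per hairpin against distance from the start of the first hairpin in the Sfmbt2 intron, in cells (top) and exosomes (bottom), on an axis that is logarithmic above 1. In cells the BFC012 points lie above the AFT024 points at every hairpin with reads (71 of 71), with peaks at miR-467c, miR-467d and miR-466g, while in exosomes the points of the lines cross. Points of near-identical hairpins are not independent.

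Counted over rows, 68 of the 75 members with a value of at least 10 in any group were 2-fold or more lower in AFT024 cells on the log2(value + 1) scale (90.7%), against 18.7% of all 818 rows so measured. In the other direction 1 of 75 was 2-fold higher, against 20.2%. That row was miR-466q-5p, with 7 cell reads for AFT024, 2 for BFC012 and an interval that holds 1. Of the 75, 36 passed the minimum only through BFC012 cells, so that their direction was partly set by the filter. Without that filter, the interval of the read ratio lay below 1 for 98 of the 150 members with cell reads (20.4% of all rows) and above 1 for 0 of 150 (21.2%). With the filter, the median log2 ratio of AFT024 over BFC012 cells was -1.93 over the 75 measured members and 0 over all rows measured. This median was thus also partly set by the filter. In the authors' deposited table, 83 of the 164 members had a q-value under 0.05 from a Fisher test on merged reads and were lower in AFT024 cells (11.7% of all rows), and 0 were higher (12.6%). Such a test compares the 2 libraries, not the conditions.

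The largest ratios among the named rows belonged to miR-669f-5p, with 5 reads in AFT024 and 65 in BFC012, and miR-466f-3-3p, with 3 and 33. Better measured was miR-466f-2-3p, with 15 and 147 reads and a ratio of AFT024 over BFC012 cells of 0.103 (0.0562 to 0.175). At the other end within Sfmbt2, miR-669a-2-5p had 23 and 68 reads, for 0.341 (0.203 to 0.555). The 2 rows with the most reads lay between these: miR-467d-5p at 0.275 (0.241 to 0.314) and miR-466g-3p at 0.175 (0.14 to 0.216).

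**Figure D3:**
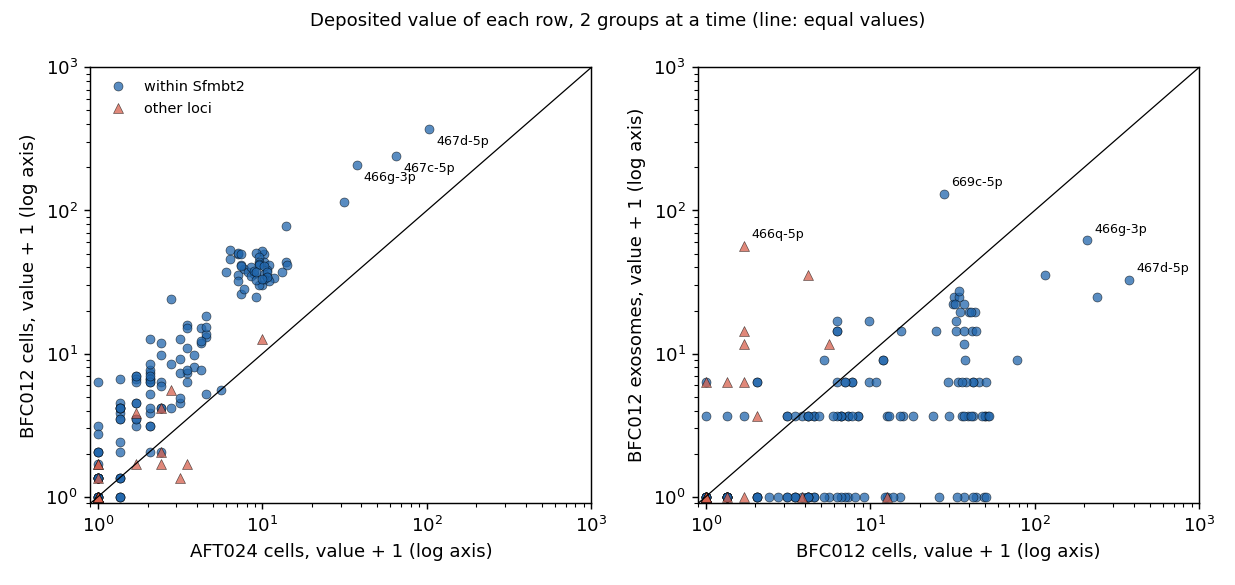
Deposited value plus 1 of each row, on log axes, in BFC012 against AFT024 cells (left) and in BFC012 exosomes against BFC012 cells (right), with circles for hairpins within Sfmbt2, triangles for other loci and a line of equal values. On the left nearly all circles lie above the line, and on the right most lie below it, with miR-669c-5p and the triangle of miR-466q-5p above.

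The host gene differed between the lines in the same direction as its intronic microRNAs. Sfmbt2 polyA RNA was at 0.235 FPKM (87 reads) in AFT024 cells and at 1.08 FPKM in those of BFC012. The read ratio was 4.41 (3.48 to 5.64), whose interval holds the 4.36 of the microRNA rows. In exosomes it had 0.363 FPKM (59 reads) in AFT024 and 0.977 FPKM (214 reads) in BFC012, a ratio of 2.07 (1.55 to 2.81). These levels are low, and on the log2(FPKM + 1) scale Sfmbt2 did not reach 2-fold in cells. Its paralog Sfmbt1, on another chromosome, had a ratio of 1.57 (1.44 to 1.72) between the cells. Between the exosomes Sfmbt1 had 1.99 (1.77 to 2.25), so the exosome difference was not particular to Sfmbt2.

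Neighbours of Sfmbt2 on chromosome 2 did not share one direction. Of the 15 listed genes (Sfmbt2, Sfmbt1 and 13 others of this chromosome) 12 were measured at 1 FPKM, of which 1 was 2-fold lower in AFT024 cells (5.95% of all genes) and 1 was 2-fold higher (7.55%). The lower one was Itih2, a hyaluronan-binding serum protein heavy chain, with 66 reads in AFT024 and 313 in BFC012 cells, a ratio of BFC012 over AFT024 of 4.93 (3.77 to 6.53). The higher one was Gata3, a zinc finger transcription factor, with 595 and 102 reads (0.178, 0.143 to 0.22). Kin and Taf3 lay near equality, at 0.873 and 1.02.

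**Figure D4:**
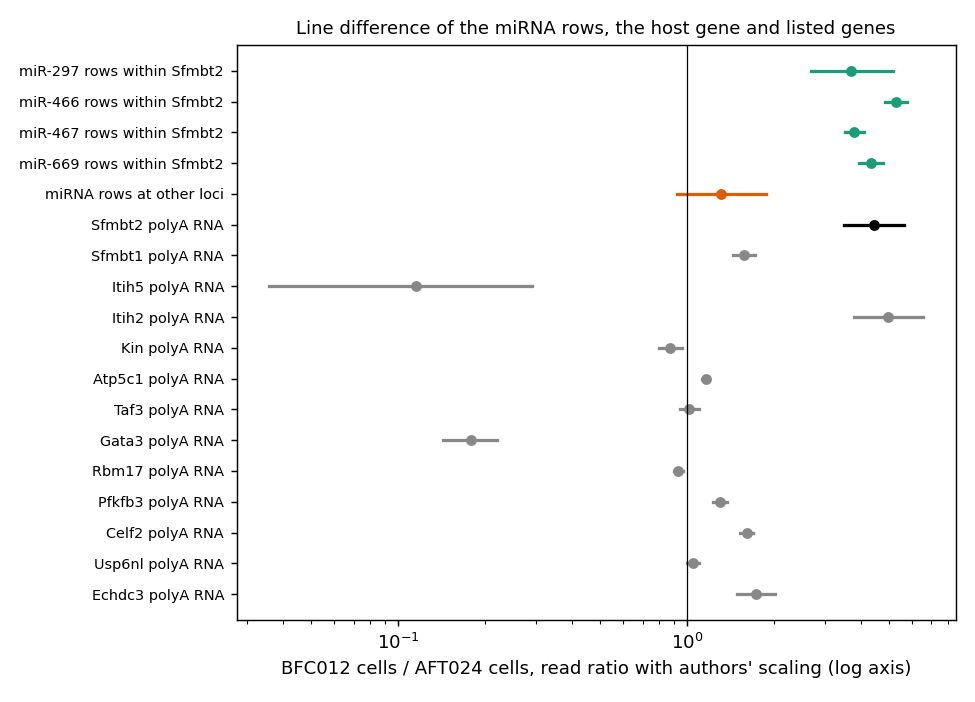
Read ratio of BFC012 over AFT024 cells with its 95% counting interval, on a log axis, for the microRNA rows by number within Sfmbt2 (green), the rows at other loci (orange), Sfmbt2 polyA RNA (black) and listed genes with 30 or more cell reads (grey). The green points and Sfmbt2 lie between 3.68 and 5.27, and of the neighbours Itih2 lies at 4.93.

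Genes that make or load microRNAs were listed too. Of 10 genes, all measured at 1 FPKM, 0 were 2-fold lower in AFT024 cells (5.95% of all genes) and 1 was 2-fold higher (7.55%), Tarbp2, a partner of Dicer, at 147 FPKM in AFT024 and 63.3 in BFC012 cells. Drosha, the nuclease that releases hairpins, was at 50.1 and 29.6 FPKM, and Dicer1, which cuts the hairpin, at 7.93 and 10.3 FPKM. For Ago4, an Argonaute, the tables disagree: 0.504 and 0.446 FPKM, but a read ratio of BFC012 over AFT024 cells of 0.0338 (0.0108 to 0.0805), with 5 reads in BFC012. Most trophoblast markers were at or near 0: of 13 listed genes 2 reached 1 FPKM in any group (Gata3 and Krt7), Cdx2, Tpbpa and Prl3b1 had 0 reads, and the summed FPKM of the list was 5.56 in AFT024 and 4.31 in BFC012 cells. These sums rest largely on Gata3 (4.08 and 0.759 FPKM) and Krt7 (0.61 and 2.71 FPKM), which differed in opposite directions.

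The second comparison set exosomes against cells in each line. Here the direction of the sum depends on the scale, because 1 read is worth 7.51 times as much in exosomes as in cells of AFT024 on the deposited scale, and 15.4 times per total reads. In AFT024 the exosome over cell ratio of all members was 0.792 (0.687 to 0.91) on the deposited scale and 1.63 (1.41 to 1.87) per total reads. In BFC012 it was 0.327 (0.294 to 0.361) and 0.61 (0.55 to 0.674), below 1 on both scales. Ratios between sets of rows within a library do not depend on this choice.

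The rows within Sfmbt2 and those at other loci differed in this ratio in both lines. Within Sfmbt2 AFT024 had 0.628 (0.534 to 0.734) and BFC012 had 0.284 (0.254 to 0.317), or 1.29 and 0.53 per total reads. At other loci it was 6.49 (4.38 to 9.61) and 5.22 (3.62 to 7.48), or 13.3 and 9.74 per total reads. This sum is uneven, as miR-466q-5p alone held 54.9% and 38.9% of its exosome reads. The row with the most cell reads there, miR-297a-1-5p (25 and 33), had 0 in both exosome groups. The rows at other loci made up 51 of 222 member reads in AFT024 exosomes (23.0%) and 54 of 393 in BFC012 exosomes, against 59 of 2105 and 78 of 9072 in the cells. Their summed exosome reads were similar in both lines, with a counting interval for the ratio, given below, that holds 1. This describes the sum only, as its rows differed in direction, such as miR-466j-3p (8 and 1 reads) and miR-466k-5p (8 and 13).

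Of the rows at other loci, miR-466q-5p held the most exosome reads, 28 in AFT024 and 21 in BFC012, with 7 and 2 in the cells. Exosomes over cells gave 30.1 (12.8 to 81.5) for AFT024 and 79.2 (19.3 to 696) for BFC012. The mature sequence matched for this hairpin is on its other arm, miR-466q-3p, which had 0 reads in both exosome groups. In miR-466k-5p, whose sequence is shown above, the reads were 8 and 13 in exosomes and 4 and 9 in cells, for ratios of 15.0 (4.03 to 68.2) and 10.9 (4.31 to 28.9). The sequence of miR-466j-3p belongs to a row with 8 reads in AFT024 exosomes, 1 in BFC012 exosomes, 4 in cells of AFT024 and 3 in cells of BFC012. The other rows printed above were chosen after their values were seen: miR-466i-3p had 4 reads in each exosome group and 5 and 13 in cells, miR-467f-3p had 1 and 5 in exosomes and 4 and 2 in cells, and miR-467h-3p had 0 and 4 in exosomes and 0 and 2 in cells.

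Within the cluster the numbers also differed. The 5p rows of miR-467 had exosome over cell ratios of 0.225 (0.145 to 0.335) in AFT024 and 0.123 (0.0914 to 0.161) in BFC012, and stayed below 1 per total reads (0.463 and 0.229). The rows of miR-669 had 1.12 (0.876 to 1.43) and 0.654 (0.563 to 0.756), or 2.31 and 1.22 per total reads. The intervals of the miR-467 5p rows lay below the miR-669 intervals in both lines. The few 3p reads of miR-467 within Sfmbt2, 9 in AFT024 and 7 in BFC012 exosomes, gave 2.11 (0.887 to 4.53) and 0.498 (0.195 to 1.06), which hold 1. The rows of miR-466 within Sfmbt2 had 0.647 (0.478 to 0.859) in AFT024 and 0.169 (0.132 to 0.213) in BFC012. Per total reads they were higher in exosomes than in cells of AFT024, at 46.4 and 34.9 RPM, and lower in BFC012, at 57.7 and 183 RPM.

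Single rows followed this order only in part. For miR-467d-5p AFT024 had a ratio of 0.104 (0.0282 to 0.27) and BFC012 one of 0.0856 (0.0441 to 0.15), and miR-467c-5p had 0.168 (0.0453 to 0.437) and 0.1 (0.0457 to 0.192). The opposite was seen for miR-669c-5p (hairpin chr2:10509296-10509404), which had 14 reads in AFT024 exosomes and 49 in BFC012 exosomes against 19 and 77 in cells, for 5.54 (2.57 to 11.6) and 4.8 (3.28 to 6.95). On the deposited scale this was a value of 37.5 and 130.3 in exosomes and 6.76 and 27.2 in cells, and it was the highest member in BFC012 exosomes. Not every miR-669 row was high in exosomes. The miR-669 row with the most cell reads, miR-669l-5p, had 1 and 3 reads in AFT024 and BFC012 exosomes, against 36 and 219 in cells. Without miR-466g-3p and miR-669c-5p, a pair chosen after their values were seen, the rows within Sfmbt2 had a ratio of 0.519 in AFT024 and 0.242 in BFC012. Per total reads these rows were at 119 RPM in exosomes and 111 in cells of AFT024, and at 214 and 475 RPM in BFC012.

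**Figure D5:**
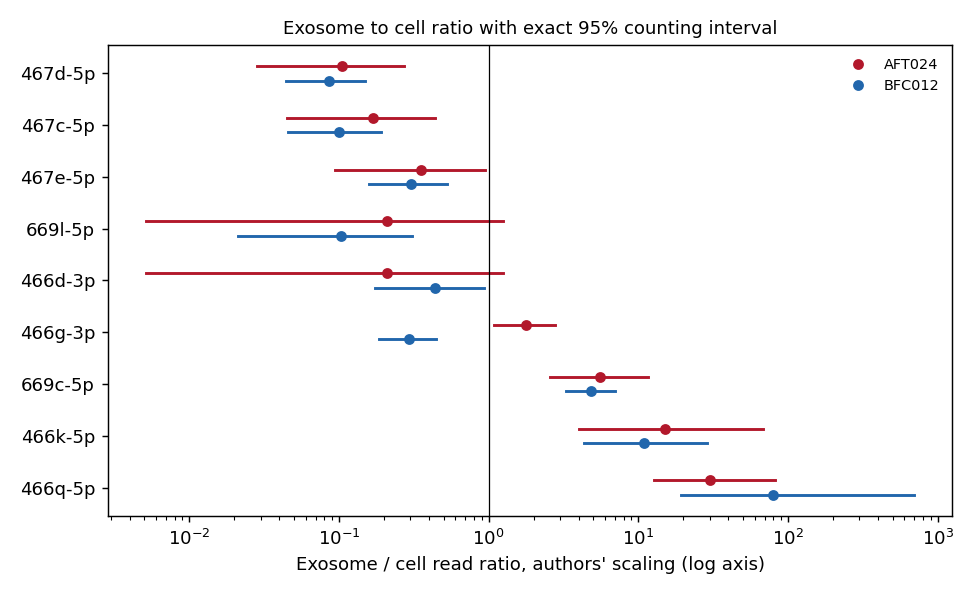
Exosome over cell read ratio on the deposited scale with its 95% counting interval, on a log axis, for 9 rows in AFT024 (red) and BFC012 (blue). The 3 miR-467 rows lie below 1 in both lines, miR-669c-5p, miR-466k-5p and miR-466q-5p lie above 1 in both, and miR-466g-3p lies above 1 in AFT024 and below 1 in BFC012. The points of miR-669l-5p and miR-466d-3p also lie below 1 in both lines.

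Rows with reads in cells and none in exosomes were limited by depth. In BFC012, rows with 0 exosome reads and 30 or more cell reads included miR-466c-2-3p (140 cell reads), miR-466c-1-3p (137), miR-466b-6-3p (121), miR-467a-2-5p (117) and miR-297b-5p (71). The upper limits of their exosome over cell ratios were 0.201, 0.206, 0.233, 0.241 and 0.402 on the deposited scale. At this depth 0 reads against 30 or more always gives a limit below 1 on that scale. Limits below 1 thus follow from how these rows were picked and are no separate evidence of a lower level in exosomes. For miR-297a-1-5p, with 33 cell reads, the limit was 0.892.

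Counted over rows in AFT024, 9 of the 75 measured members were 2-fold higher in exosomes than in cells (30.7% of all rows) and 40 were 2-fold lower (35.6%). The interval lay above 1 for 10 members (20.6% of all rows) and below 1 for 3 (18.8%), so most of the 2-fold calls in AFT024 rested on too few reads to tell from counting error. In BFC012, 9 of 75 were 2-fold higher (35.6% of all rows) and 51 were 2-fold lower (32.8%). Since 36 of the 75 passed the minimum only through BFC012 cells, this count of lower rows was partly set by the filter. The interval lay above 1 for 7 of 150 members (24.8%) and below 1 for 45 (19.3%). In the authors' deposited tables, q-values under 0.05 were held by 19 higher members (16.8% of all rows) and 2 lower members (9.64%) in AFT024, and by 13 higher (18.8%) and 37 lower (10.6%) in BFC012. The median log2 ratio over measured members was -1.05 in AFT024 and -2.07 in BFC012, against -0.22 and -0.04 over all rows measured, and the BFC012 median is subject to the same filter.

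The last comparison set the exosomes of the lines against each other. Rows within Sfmbt2 held 171 reads in AFT024 exosomes and 339 in BFC012 exosomes, a ratio of BFC012 over AFT024 of 1.97 (1.64 to 2.38), whose interval lies below the 4.15 to 4.57 of the cells. The rows at other loci held 51 and 54, for 1.05 (0.704 to 1.57). By number within Sfmbt2, miR-669 had a ratio of 2.5 (1.92 to 3.29), miR-467 of 1.73 (1.11 to 2.71) and miR-466 of 1.38 (0.95 to 2.01). The intervals of neighbours in this order overlap, as do those of miR-466 and miR-669.

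Of single rows, miR-669c-5p was clearest, at 14 and 49 reads and a ratio of AFT024 over BFC012 exosomes of 0.287 (0.147 to 0.529), and miR-466g-3p was near equal, at 24 and 23 reads (1.05, 0.567 to 1.95). The 12 loci of miR-669a-5p together held 24 reads in AFT024 and 89 in BFC012 exosomes, a ratio of BFC012 over AFT024 of 3.69 (2.33 to 6.05), near the 4.11 (3.6 to 4.71) of the cells. Over rows, 10 of 75 members were 2-fold higher in AFT024 exosomes (24.2% of all rows) and 38 were 2-fold lower (23.5%). With 1 read worth 2.67 and 2.66 and a pseudocount of 1, a row at 0 against 1 read already passes 2-fold. Some members, such as miR-467h-3p and miR-466j-3p, also reached the minimum value only in the exosome group where they were higher. These 2 counts were therefore partly set by the filter and by single reads. The interval lay above 1 for 1 of 116 members with reads, miR-466j-3p (15.5% of all rows), and below 1 for 5 (12.9%), miR-669c-5p and 4 rows of miR-669a, which were named after their values were seen. In the authors' deposited table, miR-669c-5p was the 1 member that had a q-value under 0.05 and was lower in AFT024 exosomes (5.32% of all rows), and 0 were higher (7.96%).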

How the data were processed

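Small RNA and polyA RNA of cells and exosomes were sequenced. Per the submitters' processing notes the build was mm10 and the tools were Bowtie, Cufflinks and TopHat, without roles or versions. The sources used here do not name the counting tool. The main small RNA table is a normalized signal, deposited by the authors as reads times a factor per group. The pairwise small RNA tables between lines hold whole counts, which the authors deposited as normalized reads per the file headers. The polyA table holds FPKM per the file headers. Whole reads were recovered by dividing each small RNA column by its smallest positive value: 100% were whole within 0.01 and equalled those of the pairwise tables. Members were read from row names, and placed with RefSeq and GENCODE on GRCm38. Members and lists were chosen with earlier results of these data known. Log2 ratios used a pseudocount of 1, rows with a value of at least 10 in any group, and a 2-fold call. Listed genes were measured where any group reached 1 FPKM. Read ratios used the deposited scale for small RNA and size factors of the pair for polyA RNA. Interval code was tested on simulated data. The named rows were the 2 marker rows (miR-467d-5p and miR-466g-3p), the 8 with the most reads per group, the 4 highest and 4 lowest ratios per comparison with 30 or more reads, rows at 0 reads against 30 or more, the top row of each number, and any listed gene. Python 3.11.15 and SciPy 1.17.1 were used.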

Additional observations from a re-analysis of the deposited data

Results flagged for a closer look

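In 3 results the exosome over cell ratio lay above 1 in AFT024 and below 1 in BFC012 on the deposited scale, with counting intervals that lie apart, but in 2 of them the AFT024 interval holds 1. The difference between the lines was not tested, as each has 1 value. The miR-466 rows summed to 1.22 in AFT024 (0.98 to 1.51) and 0.266 in BFC012 (0.219 to 0.321), and to 2.51 and 0.497 per total reads. Of the 102 miR-466 reads in AFT024 exosomes 50 came from rows at other loci, and miR-466 within Sfmbt2 had 0.647 and 0.169 on the deposited scale, below 1 in both lines. Per total reads this set was higher in exosomes than in cells of AFT024 (46.4 and 34.9 RPM) and lower in BFC012 (57.7 and 183 RPM). The miR-669 rows summed to 1.12 (0.876 to 1.43) and 0.654 (0.563 to 0.756), but to 2.31 and 1.22 per total reads, which is above 1 in both. The row miR-466g-3p had 1.77 in AFT024 (1.08 to 2.78) and 0.295 in BFC012 (0.185 to 0.447), or 3.63 and 0.55 per total reads, while its exosome reads were 24 and 23.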

How the results depend on the processing

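The ratios between the cell lines depended little on the settings, whereas counts of calls in exosomes did. Members summed to an AFT024 over BFC012 cell ratio of 0.234, and of 0.248 in rows without a locus number. The AFT024 exosome over cell ratio of 0.792 reversed to 1.63 with reads scaled to total, and was 0.658 with size factors of the pair, 0.962 in rows without a locus number and 0.628 in rows within Sfmbt2. The BFC012 ratio of 0.327 was 0.61, 0.367 in rows without a locus number and 0.284 in rows within Sfmbt2. Keeping only rows within Sfmbt2 was chosen after seeing the data. With a pseudocount of 10, members higher and lower numbered 4 and 2 for AFT024 exosomes against cells (9 and 40 as reported), 1 and 17 for AFT024 against BFC012 exosomes (10 and 38), 4 higher for BFC012 exosomes against cells (9) and 0 higher for AFT024 against BFC012 cells (1). With no filter these were 23 higher in AFT024 exosomes, 18 higher and 84 lower in BFC012 exosomes (51), 2 higher and 109 lower for the cells (68), and 22 higher and 59 lower for the exosomes of the lines. With a value of 50 or more, few rows remained: 2 and 5 in AFT024, 2 and 7 in BFC012, 8 lower for the cells, and 1 and 6 for the exosomes of the lines. In rows without a locus number 13 were lower in AFT024 exosomes, 19 lower in BFC012 exosomes, 23 lower in AFT024 cells, and 4 higher and 14 lower in AFT024 exosomes against BFC012 exosomes, as fewer rows were counted. With reads scaled to total, 18 were higher and 25 lower in AFT024 exosomes, and at 1.5-fold 15 were higher. Within Sfmbt2, 5 were higher in AFT024 exosomes, 4 in BFC012 exosomes and 0 in AFT024 cells. The share of all reads in rows without a locus number was 0.0122% and 0.017% in AFT024 and BFC012 exosomes and 0.00619% and 0.0248% in their cells, and in rows within Sfmbt2 it was 0.0153% and 0.0272% in exosomes. Of the 100 alternative values, 55 stayed close to the reported value. No paired analysis was possible because the tables hold 1 merged value per group, and leaving out a sample was not run for the same reason. Depth limits the exosome rows, most of which held under 10 reads.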
